A study of Mus musculus with 8 samples.

Results

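Transcripts of 36 genes for chaperones and the unfolded protein response were followed in subcutaneous fat of mice given niacin-bound chromium (NBC). Each gene was read from 1 probe set, the one that names only that gene and has the highest mean log2(signal + 26) over all 8 arrays. The annotation used here names a probe set for 34 of the 36, all 34 passed the filter on dim probe sets, and Hsp90ab1 and Hsf1 are unnamed here and were not analysed. The 34 were among 18193 genes with such a probe set and 11662 that passed the filter. They were divided by role into 11 cytosolic heat shock genes, 3 mitochondrial chaperones, 10 chaperones of the endoplasmic reticulum (ER), 6 regulators of the unfolded protein response and 4 genes of ER-associated degradation.

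The NBC group comprised 4 male mice (numbers 5, 9, 11 and 13) that received 10 mg of NBC per kg of body weight in water by oral gavage on 5 days per week for 10 weeks. The placebo group comprised 4 male mice (numbers 6, 8, 10 and 14) that received the same volume of water on the same schedule. All 8 were diabetic per the series title and 8 weeks old per the labels, which do not say whether that is the age at the start. Subcutaneous fat of each mouse was measured on 1 Affymetrix Mouse Genome 430 2.0 array, while the sources used here name neither the strain nor any batch.

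Chaperones bind unfolded stretches of protein and help them fold, and cells raise their chaperones when unfolded protein builds up. In the cytosol this is the heat shock response, run by the transcription factor HSF1 through heat shock elements. In the ER, the sensors IRE1 (Ern1), PERK (Eif2ak3) and ATF6 run the unfolded protein response, which raises ER chaperones and degradation genes through XBP1, ATF6 and ATF4. Fat cells secrete much protein, and ER stress in adipose tissue has been described in obesity and diabetes.

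The promoter sequences of 30 of these genes were read from RefSeq (mouse build GRCm38.p6), in 35 windows of 250 bases before to 50 bases after a start of the gene. A gene was counted if any of its windows matched, while the background is a share of windows. They were searched for elements through which both stress responses are known to act. The ER stress response element, searched as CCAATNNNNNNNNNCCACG on both strands, occurred in the windows of 7 of the 30 (Hspa5, Hsp90b1, Calr, Canx, Pdia6, Dnajc3 and Syvn1), against 0.119% of all 32851 windows. Its shorter form, ATTGGNCCACG, occurred in Dnajb11 and Herpud1, against 0.0365% of all windows. A heat shock element of 3 units, GAANNTTCNNGAA or TTCNNGAANNTTC, occurred in Hspd1, Hspe1 and Hsph1, against 0.603% of all windows. Of the 9 cytosolic heat shock genes with a window, Hsph1 alone had an exact match, and Hspa1a, Hspa1b, Hspb1, Dnajb1 and Bag3 had none. The C/EBP-ATF element TGATGCAA occurred in Herpud1 alone among the 30, against 0.895%, and TGACGTGG, an XBP1 and ATF6 element, in none of the 30, against 0.676%. None of the 5 regulators with a window had an exact match to any of these elements. A match is a stretch of letters and not a measured binding site. The search allowed no mismatch in the fixed letters and no other spacing, so a window without a match may still hold an element. Given here are the 250 bases before the start of Hspa5 (chr2:34771840-34772089, plus strand), Hsp90b1 (chr10:86705445-86705694, minus strand) and Herpud1 (chr8:94386179-94386428, plus strand), and a 30-base stretch upstream of the start of Hspe1 (chr1:55088053-55088082, plus strand), each 5′ to 3′ with the matched elements in capitals.
Hspa5: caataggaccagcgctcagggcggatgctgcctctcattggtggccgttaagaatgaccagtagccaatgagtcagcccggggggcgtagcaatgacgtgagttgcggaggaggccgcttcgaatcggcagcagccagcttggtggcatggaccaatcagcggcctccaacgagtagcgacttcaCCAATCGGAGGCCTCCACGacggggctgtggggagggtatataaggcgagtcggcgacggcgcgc
Hsp90b1: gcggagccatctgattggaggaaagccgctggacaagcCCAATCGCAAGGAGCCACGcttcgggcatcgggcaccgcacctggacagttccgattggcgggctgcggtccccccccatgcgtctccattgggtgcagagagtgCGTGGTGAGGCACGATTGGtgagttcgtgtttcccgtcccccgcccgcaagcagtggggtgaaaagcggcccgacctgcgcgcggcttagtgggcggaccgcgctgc
Herpud1: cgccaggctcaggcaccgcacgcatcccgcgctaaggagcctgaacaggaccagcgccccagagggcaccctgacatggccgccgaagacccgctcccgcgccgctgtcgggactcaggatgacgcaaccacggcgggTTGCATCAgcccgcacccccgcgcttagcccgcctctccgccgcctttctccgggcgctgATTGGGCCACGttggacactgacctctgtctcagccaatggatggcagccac
Hspe1: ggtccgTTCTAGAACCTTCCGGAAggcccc

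The elements of the other ER genes were, on the strand that matches the search and with the fixed letters in capitals, as follows.
Calr: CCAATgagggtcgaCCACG
Canx: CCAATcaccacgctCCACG
Pdia6: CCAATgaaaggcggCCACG
Dnajc3: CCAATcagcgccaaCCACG
Syvn1: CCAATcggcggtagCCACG
Dnajb11: ATTGGcCCACG

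In the arrays, each set of 16 skeletal muscle markers, 8 fibroblast markers and 10 macrophage markers was higher in NBC in every member, and all 8 measured adipocyte markers were lower in NBC. At an unadjusted limma p under 0.05 were 15, 3, 2 and 0 of these, against 5.44% of all genes, and none passed the adjusted threshold. The summed signal of the muscle markers was 187461, 22835, 204124 and 183021 in NBC mice 5, 9, 11 and 13, and 8878 to 29807 in placebo mice. That of the adipocyte markers was 490205 to 553717 in NBC mice and 496160 to 595984 in placebo mice, so markers of fat were bright on all 8 arrays and those of muscle were uneven. The summed fibroblast markers were 217951 to 266482 in NBC mice and 188042 to 209098 in placebo mice, without overlap. Markers of other cell types were mixed. Of 8 endothelial markers 4 were above 0 and 4 below. Of 3 measured epithelial markers 2 were above 0 and 1 below, and of 5 measured T cell markers 1 was above and 4 below. Of 6 measured brown adipocyte markers 4 were lower in NBC and 2, Cox8b and Elovl3, were above 0. At an unadjusted limma p under 0.05 were Cidea, a lipid droplet protein, at a log2 difference of -0.996 without overlap, and Ucp1, the uncoupling protein of brown fat, at -1.39 (limma adjusted p = 0.653 and 0.73). Of 9 plasma cell and B cell markers 6 were lower and 3 (Sdc1, Ighm and Derl3) above 0. Of the 6, 1 reached that threshold (Jchain, which joins secreted antibodies, at -1.36 with a limma adjusted p of 0.751). Over all genes, 2.71% were lower at that threshold and 2.23% were lower without overlap. In the whole-tissue RNA measured here, fewer cells of a type and less RNA per cell cannot be told apart. The ratio of the 3′ to the 5′ Gapdh control probe sets, a measure of RNA integrity and labelling, was 1.47, 0.844, 1.28 and 1.115 in NBC mice 5, 9, 11 and 13, and 0.924 to 1.04 in placebo mice. Array medians were 286 to 329.6 in NBC mice and 285.5 to 323.3 in placebo mice, at a 2% trimmed mean of 1500.01 on every array.

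No difference between NBC and placebo mice passed the test in any of the 34 chaperone and unfolded protein response genes. With limma, 0 of 34 passed an adjusted p of 0.05, where 0.0% of the 22519 probe sets tested did and the smallest adjusted p over the members was 0.827. At an unadjusted limma p under 0.05 there were also 0 of 34, against 5.44% of all genes, of which 2.73% were higher and 2.71% lower in NBC, and against 6.22% of all probe sets tested. The 4 NBC and 4 placebo values overlapped in all 34, whereas they did not overlap in 3.93% of all genes, 1.7% higher and 2.23% lower in NBC. The log2 differences, NBC minus placebo, were above 0 in 18 and below 0 in 16, with a median of 0.0060 over the members and -0.0064 over all genes tested. They ran from -0.21 for Pdia4 to 0.15 for Hspa5.

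How far the data bound the brightest probe sets of these genes can be read from the 95% intervals of the fit. For 32 of the 34 the whole interval lay within 1.5-fold in either direction, and for all 34 it lay within 2-fold. Hspa1b and Pdia4, whose signals varied most among mice, were those outside 1.5-fold. Some further probe sets of the same genes, described below, had intervals that reached past 2-fold. The interval of Sel1l by 1430692_a_at ran from 0.374-fold to 1.196-fold and that of Dnajc3 by 1449373_at from 0.413-fold to 0.891-fold. For Hspb8 by 1456434_x_at it ran from 0.946-fold to 2.116-fold. The 2-fold bound therefore holds for the brightest probe sets and not for every probe set. The median SD within groups was 0.174 on the log2 scale for the 34, against 0.222 for all genes tested and 0.207 for the 10375 that were at least as bright as the dimmest of the 34. Among all genes, 28.6% showed a difference in size beyond that of any of the 34, and 25.4% of those 10375 did. The dimmest of the 34 was Hspa1a, so the 10375 hold most of the 11662 genes tested and are not matched to the 34 in brightness. With 4 mice per group, a shift in 1 gene that is smaller than its interval was not detectable.

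**Figure D1:**
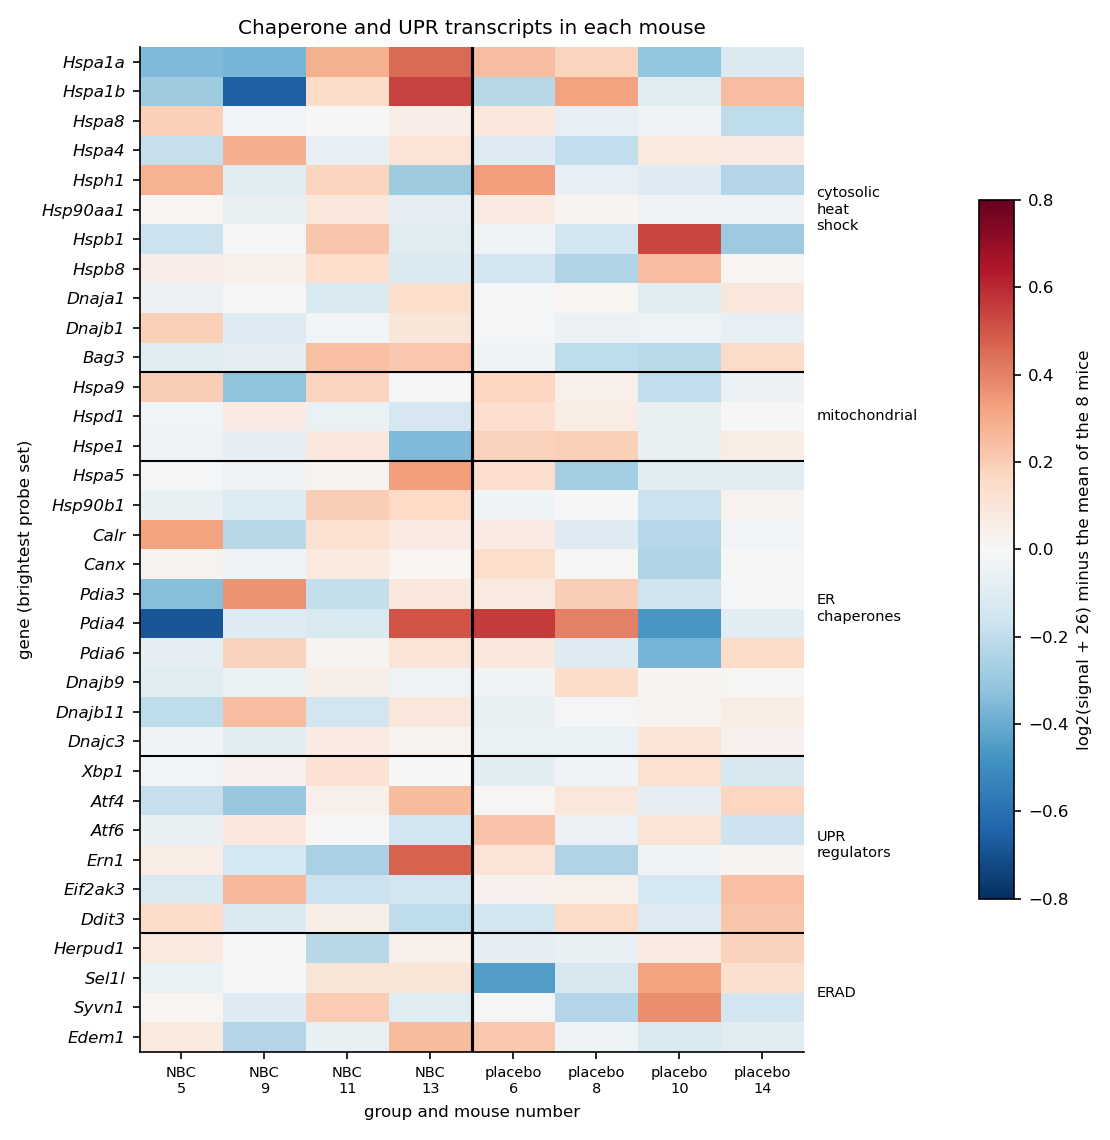
Each cell gives log2(signal + 26) of a gene's brightest probe set in 1 mouse minus its mean over the 8 mice, with NBC mice 5, 9, 11 and 13 left of placebo mice 6, 8, 10 and 14, and genes grouped by role (UPR, unfolded protein response; ERAD, ER-associated degradation). No gene has one colour across all NBC mice and the other across all placebo mice, and the deepest colours belong to single mice, such as NBC mouse 9 for Hspa1b and NBC mouse 5 for Pdia4.

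**Figure D2:**
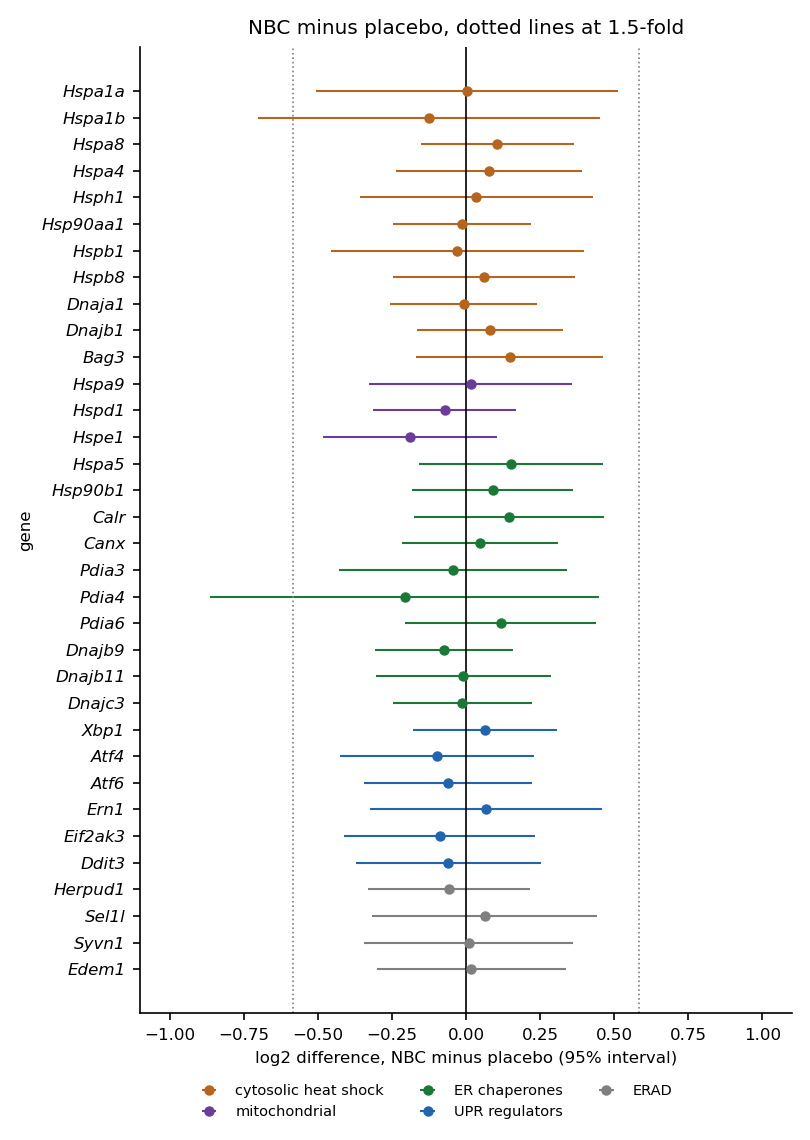
Points are log2 differences, NBC minus placebo, and lines their 95% intervals from limma (4 mice per group), with dotted lines at 1.5-fold in either direction. All 34 intervals include 0, and those of Hspa1b and Pdia4 cross a dotted line.

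The cytosolic heat shock genes comprised the Hsp70 chaperones, their partners and the small heat shock proteins, and 7 of the 11 were above 0 and 4 below, with a median log2 difference of 0.035. Their range was -0.13 to 0.15, and none reached an unadjusted p below 0.318. Hspa1a and Hspa1b encode the stress-inducible Hsp70, which is low in unstressed cells and rises steeply with heat or unfolded protein. Hspa1b (1452318_a_at) had signals of 1486, 1143, 2009 and 2645 in NBC mice 5, 9, 11 and 13, and 1552, 2270.3, 1696 and 2154 in placebo mice 6, 8, 10 and 14. NBC mice held both the highest value, in mouse 13, and the lowest, in mouse 9, with all placebo values between them. The means were 1821 ± 655 in NBC and 1918 ± 348 in placebo mice (SD, n = 4 each), which differed by -0.13 ± 0.25 (SE) on the log2 scale with a limma adjusted p of 0.941.

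Hspa1a (1452388_at) showed the same order of mice within NBC, with 344, 339, 548 and 619.6 in NBC mice 5, 9, 11 and 13, and 535, 508, 353 and 411 in placebo mice 6, 8, 10 and 14. NBC mice 13 and 11 were the highest and NBC mice 5 and 9 the lowest of all 8 for Hspa1a, and the log2 difference was 0.0029 ± 0.23. These genes are near-identical neighbours on chromosome 17 (GRCm38.p6; Hspa1a at 34969359 to 34972156 and Hspa1b at 34956429 to 34959238), so the probe sets may not separate their transcripts. Their 250 bases before the start are shown to make the likeness visible, with the 3 positions at which they differ in capitals and the other 247 identical (chr17:34972157-34972406 and chr17:34959239-34959488, both minus strand).
Hspa1a: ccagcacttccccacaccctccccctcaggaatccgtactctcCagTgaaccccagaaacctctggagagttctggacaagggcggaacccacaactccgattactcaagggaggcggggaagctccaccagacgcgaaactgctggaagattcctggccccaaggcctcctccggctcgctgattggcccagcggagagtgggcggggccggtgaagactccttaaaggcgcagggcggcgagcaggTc
Hspa1b: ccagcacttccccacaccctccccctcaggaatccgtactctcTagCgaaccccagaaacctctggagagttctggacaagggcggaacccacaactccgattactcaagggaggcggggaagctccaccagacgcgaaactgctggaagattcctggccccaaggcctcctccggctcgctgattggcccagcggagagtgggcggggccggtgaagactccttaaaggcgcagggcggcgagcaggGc

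Hspa8 encodes the constitutive Hsp70 of the cytosol, which also uncoats clathrin vesicles. Its signals (1455789_x_at, a probe set type whose probes may also match other transcripts) were 72779, 62897, 63622 and 66170.0 in NBC mice 5, 9, 11 and 13, and 67854, 61055, 62728 and 55421 in placebo mice 6, 8, 10 and 14. The highest value was in NBC mouse 5 and the lowest in placebo mouse 14, with the other 6 mixed. The log2 difference was 0.11 ± 0.11 (95% interval -0.15 to 0.36). Hspa4 and Hsph1, Hsp110-type proteins that release nucleotide from Hsp70, differed by 0.077 ± 0.14 and 0.035 ± 0.17. Hsph1 was high in NBC mice 5 and 11 and placebo mouse 6 and lowest in NBC mouse 13, so its spread lay within the groups.

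Hsp90aa1, the inducible cytosolic Hsp90, was the steadiest of all 34 by the brightest probe sets (1438902_a_at). Its signals were 30619, 29106, 32300.2 and 28611 in NBC mice 5, 9, 11 and 13, and 31836, 30773, 29480.4 and 29613 in placebo mice 6, 8, 10 and 14. All placebo values lay within the NBC range, at 30159 ± 1663 in NBC and 30425 ± 1105 in placebo mice (SD, n = 4 each). The within-group SD on the log2 scale was 0.067, and the log2 difference of -0.014 had a 95% interval of -0.25 to 0.22. For the further Hsp90aa1 probe sets 1426645_at and 1437497_a_at that SD was larger, at 0.26 and 0.31. Hspb1 (Hsp27), a small heat shock protein that holds unfolded protein, had 1 high mouse, placebo mouse 10 at 54151, while the lowest of the 8 was placebo mouse 14 at 30604. The highest NBC mouse was mouse 11 at 43656, and the log2 difference was -0.030 ± 0.19. Hspb8, which works with Bag3 in the selective autophagy of misfolded protein, was highest in the same placebo mouse and differed by 0.061 ± 0.14.

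Among the partners, Bag3 had the highest difference of the cytosolic genes. Bag3 links Hsp70 and Hspb8 to autophagy, and its signals were 4763, 4845, 6009 and 5919.7 in NBC mice 5, 9, 11 and 13, and 4994, 4414, 4372 and 5648 in placebo mice 6, 8, 10 and 14. NBC mice 11 and 13 exceeded every placebo mouse, but NBC mice 5 and 9 lay within the placebo range. The means were 5384 ± 672 in NBC and 4857 ± 599 in placebo mice (SD, n = 4 each), and the log2 difference was 0.15 ± 0.14 with a limma adjusted p of 0.868. The Hsp40 proteins, which hand clients to Hsp70, were close to even, with -0.0079 ± 0.11 for Dnaja1 and 0.080 ± 0.11 for Dnajb1. Dnajb1 varied little in placebo mice, at 3969.9 to 4126, while NBC mice spanned 3869 to 4731 around that range.

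Taking each mouse's median deviation over the 11 cytosolic genes from their mean over the 8 mice, NBC mice 5, 9, 11 and 13 stood at -0.046, -0.056, 0.14 and 0.096 on the log2 scale, and placebo mice at -0.065 to -0.0086. NBC mice 11 and 13 were thus the high ones and NBC mice 5 and 9 lay among the placebo mice. The muscle markers were high in NBC mice 5, 11 and 13 and low in NBC mouse 9. NBC mice 11 and 13 were thus high and NBC mouse 9 low in both, while NBC mouse 5 was high for the muscle markers alone. The part of muscle in these levels was not tested. Markers of plasma cells and B cells had a median deviation of 0.18, 0.22, -1.50 and -0.999 in NBC mice 5, 9, 11 and 13, and 0.18 to 0.76 in placebo mice. For T cell markers it was 1.33, 0.39, -0.44 and -1.58 in the same NBC mice, and 0.12 to 0.73 in placebo mice. By these medians both were low in NBC mice 11 and 13, where the cytosolic genes were high. Summed signals did not all show this. The T cell sum was 4640 in NBC mouse 11 and 8475 in NBC mouse 13, against 4732.5 to 8086 in placebo mice. The plasma cell and B cell sum was 62964 and 57457 in these mice, against 61977 to 85572 in placebo mice. Il7r, Sdc1 and Derl3 were highest of the 8 in NBC mouse 13. The part of these cells in the levels was not tested.

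The 3 mitochondrial chaperones had a median log2 difference of -0.072, with 1 above 0 and 2 below. Hspe1 (Hsp10), the lid of the Hsp60 folding chamber, had the smallest p of all 34. Its signals (1450668_s_at) were 12581, 12305, 13703 and 10129.5 in NBC mice 5, 9, 11 and 13, and 14711, 14746, 12408 and 13497 in placebo mice 6, 8, 10 and 14. NBC mouse 13 was the lowest, placebo mice 6 and 8 the highest, and NBC mice 5 and 11 exceeded placebo mouse 10, so the groups overlapped. The means were 12180.0 ± 1495 in NBC and 13840.0 ± 1118 in placebo mice (SD, n = 4 each), and the log2 difference was -0.19 ± 0.13 with a limma p of 0.181 and an adjusted p of 0.827. The other probe set of Hspe1 (1422579_at) was also below 0, at -0.15.

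Hspd1 (Hsp60), the chamber itself, shares its promoter region with Hspe1 and is read in the opposite direction, their windows having 285 bases in common. Its signals were 21998, 23407, 21589 and 20381 in NBC mice 5, 9, 11 and 13, and 24581, 23347, 21507 and 22433 in placebo mice 6, 8, 10 and 14. The mean was 21844 ± 1248 in NBC and 22967 ± 1313 in placebo mice (SD, n = 4 each), and the groups overlapped, with placebo mouse 6 highest and NBC mouse 13 lowest. The log2 difference was -0.072 ± 0.11. For Hspa9 (mortalin), the Hsp70 that pulls proteins into mitochondria, it was 0.016 ± 0.15, and NBC mice 5 and 9 lay at opposite ends of the 8.

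The 10 ER chaperones were divided evenly, 5 above 0 and 5 below, with a median log2 difference of 0.020. Hspa5 (BiP), the Hsp70 of the ER that holds the 3 sensors inactive and is the usual readout of ER stress, had the highest difference of the 34. Its signals were 37224, 36579, 38439 and 47400.3 in NBC mice 5, 9, 11 and 13, and 41333, 31185, 35554 and 35502 in placebo mice 6, 8, 10 and 14. NBC mouse 13 was the highest and placebo mouse 8 the lowest, while placebo mouse 6 exceeded NBC mice 5, 9 and 11. The means were 39910.0 ± 5053 in NBC and 35894 ± 4164 in placebo mice (SD, n = 4 each). The log2 difference of 0.15 ± 0.14 had a 95% interval of -0.16 to 0.46 and a limma adjusted p of 0.861. Of its other probe sets, 1427464_s_at differed by -0.065 and 1447824_x_at by 0.36, so the direction depended on the probe set.

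Hsp90b1 (Grp94), the Hsp90 of the ER, had 24189.7, 23363, 28983 and 28162 in NBC mice 5, 9, 11 and 13, and 24609, 25343, 22386 and 25704 in placebo mice 6, 8, 10 and 14. NBC mice 11 and 13 exceeded all placebo mice and NBC mice 5 and 9 exceeded placebo mouse 10 alone. The log2 difference was 0.090 ± 0.12. Calr and Canx, the calreticulin and calnexin that retain glycoproteins until folded, differed by 0.14 ± 0.14 and 0.048 ± 0.12. For Calr the highest signal was 35544 in NBC mouse 5, and the lowest were 24318 in NBC mouse 9 and 24224 in placebo mouse 10. All 3 Calr probe sets were above 0, between 0.10 and 0.18.

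The protein disulfide isomerases form and rearrange the disulfide bonds of secreted proteins. Pdia4 was the most variable of all 34, with 1335, 2009, 1983 and 3074 in NBC mice 5, 9, 11 and 13, and 3194, 2875, 1561 and 2039.6 in placebo mice 6, 8, 10 and 14. The lowest value was in NBC mouse 5 and the highest in placebo mouse 6, and NBC mouse 13 came close to placebo mouse 6, so each group covered nearly the whole range. The means were 2100.1 ± 719.8 in NBC and 2417 ± 750.4 in placebo mice (SD, n = 4 each), and the log2 difference of -0.21 ± 0.29 had a 95% interval of -0.86 to 0.45. Pdia3, which acts with Calr and Canx, differed by -0.043 ± 0.17, with NBC mouse 5 lowest and NBC mouse 9 highest of the 8. Pdia6, which also binds the IRE1 sensor, differed by 0.12 ± 0.14.

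The ER Hsp40 proteins serve as partners of BiP. Dnajb9 (ERdj4), a strong target of XBP1, had 10035, 10338, 11054 and 10409 in NBC mice 5, 9, 11 and 13, and 10498, 11864, 10864 and 10812 in placebo mice 6, 8, 10 and 14. Placebo mouse 8 was the highest and NBC mouse 5 the lowest, but NBC mouse 11 exceeded 3 of the 4 placebo mice. The log2 difference was -0.073 ± 0.10, within a 95% interval of -0.31 to 0.16. Dnajb11 (ERdj3), which is secreted with its clients, differed by -0.0090 ± 0.13. Dnajc3 (p58IPK), which also restrains PERK, differed by -0.012 ± 0.10.

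Placebo mouse 10 was the lowest of the 8 in 4 of the 10 ER chaperones (Hsp90b1, Calr, Canx and Pdia6), and NBC mouse 5 in another 4 (Pdia3, Pdia4, Dnajb9 and Dnajb11). The median deviation over the 10 was -0.070, -0.047, 0.037 and 0.088 in NBC mice 5, 9, 11 and 13, and 0.068, -0.0024, -0.17 and 0.0047 in placebo mice 6, 8, 10 and 14. Both groups therefore held mice above and below 0, and the single lowest was a placebo mouse. Placebo mouse 10 also had the lowest summed macrophage markers, 114960 against 148712 to 229584 in the other 7, whose part was not tested. Of the 7 genes with the longer ER stress response element shown above, Hspa5, Hsp90b1, Calr, Canx, Pdia6 and Syvn1 were above 0 and Dnajc3 below, with no p past a threshold. Dnajb11 and Herpud1, with the shorter form, were both below 0. Over all genes tested, 48.5% were above 0. Hspa5, Hsp90b1, Canx and Syvn1 each had a further probe set below 0, while those of Calr were above 0 and Pdia6 had none.

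**Figure D3:**
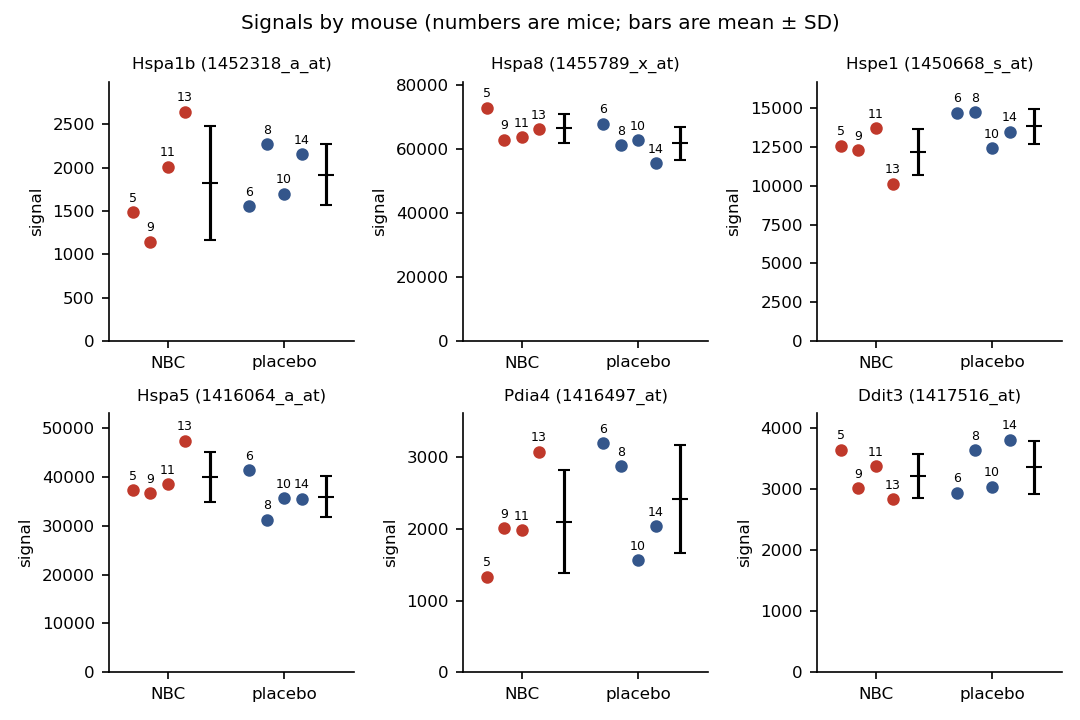
Signals of 6 genes in each mouse on axes that start at 0, with NBC left of placebo, mouse numbers above the points and the mean ± SD of 4 mice beside each group. In each panel the groups overlap, the points of Hspa1b and Pdia4 spread widest, and NBC mouse 13 stands highest for Hspa1b and Hspa5.

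The 6 regulators had a median log2 difference of -0.060, with 2 above 0 and 4 below, and the smallest unadjusted limma p among them was 0.521. Ddit3 (CHOP), the death-promoting factor that marks prolonged ER stress, had 3641, 3012, 3367 and 2832 in NBC mice 5, 9, 11 and 13, and 2939.8, 3629, 3037 and 3807 in placebo mice 6, 8, 10 and 14. High and low mice occurred in both groups, with means of 3213 ± 361 in NBC and 3353 ± 429 in placebo mice (SD, n = 4 each) and a log2 difference of -0.059 ± 0.14. Atf4, which PERK and other kinases induce at the level of translation and which drives Ddit3, had 10060.1, 9244, 11762 and 13605 in NBC mice 5, 9, 11 and 13, and 11518, 12182, 10811 and 12846 in placebo mice 6, 8, 10 and 14. NBC mice 13 and 9 were the highest and lowest of all 8, and the log2 difference was -0.097 ± 0.15.

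Xbp1, whose spliced form is the active factor of the IRE1 branch, had 25261, 26280.0, 27729 and 25594 in NBC mice 5, 9, 11 and 13, and 24038, 25160.1, 27828 and 23423 in placebo mice 6, 8, 10 and 14. Placebo mouse 10 was highest and placebo mouse 14 lowest, with all NBC mice between them and a log2 difference of 0.064 ± 0.11. The spliced and unspliced forms are not told apart here. The sensors themselves differed by 0.067 ± 0.17 for Ern1, -0.089 ± 0.14 for Eif2ak3 and -0.061 ± 0.13 for Atf6. Ern1 was highest in NBC mouse 13, at 2740.0 against 1635 to 2125 in the other 7, and Eif2ak3 was high in NBC mouse 9 and placebo mouse 14 and lowest in NBC mouse 11. These sensors act through their own activation, which transcript levels do not show.

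ER-associated degradation takes misfolded protein from the ER to the proteasome, and its 4 genes had a median log2 difference of 0.014, 3 above 0 and 1 below. Herpud1, a scaffold of the degradation complex and a sensitive target of ATF6 and ATF4, had 3979.6, 3733, 3225 and 3868 in NBC mice 5, 9, 11 and 13, and 3561, 3611, 3952 and 4275 in placebo mice 6, 8, 10 and 14. The groups overlapped throughout, with NBC mouse 11 lowest and placebo mouse 14 highest, and differed by -0.057 ± 0.12. Sel1l and Syvn1 (Hrd1), the adaptor and the ubiquitin ligase of that complex, were both highest in placebo mouse 10, at 8175 and 7249. Across groups they differed by 0.063 ± 0.17 and 0.0091 ± 0.16. Edem1, a lectin that delivers glycoproteins to the complex, differed by 0.019 ± 0.14.

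Of the 34 genes, 24 had further probe sets that passed the filter, 45 in all, and these did not repeat the even division of the brightest ones. Below 0 were 32 of the 45, or 71.1%, against 56.0% of all 8271 further probe sets of named genes, and their median log2 difference was -0.10, against -0.036 over all of them. In 17 of the 24 genes at least 1 further probe set had the opposite sign to the brightest. When each gene was read as the mean of all its probe sets, Hspa8 (-0.0086), Dnajb1 (-0.074), Canx (-0.17), Xbp1 (-0.039) and Sel1l (-0.34), all above 0 by their brightest probe set, moved below 0 by more than 1 SD. The further probe sets were singled out after their values had been seen. None passed the adjusted threshold, 1 of 45 had an unadjusted limma p under 0.05, against 6.67% of all further probe sets, and 0 of 45 was lower in NBC without overlap, against 2.07%. The count of 1 depended on single mice. Without NBC mouse 9 it was 11 of 45, 9 below 0 and 2 above, against 15.7% of all further probe sets in that fit, and the smallest limma adjusted p of the 45 was 0.238. Those below 0 were 3 probe sets of Sel1l and 1 each of Hspb8, Dnajb1, Hspe1, Canx, Dnajc3 and Xbp1, and those above 0 were 1 each of Hspa4 and Calr. The count was 3 without placebo mouse 6 and 2 without placebo mouse 10.

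The low values lay most often in NBC mouse 5. It was the lowest of the 8 for 18 of the 45 probe sets, or 40.0%, against 21.7% of all further probe sets. NBC mouse 11 was the lowest for 7, or 15.6%, close to its share of 16.7% over all further probe sets. Either of these mice was the lowest for 25 of the 45, or 55.6%, against 38.5% of all further probe sets and 23.5% of the 34 brightest. The median deviation of the 45 was -0.22, 0.051, -0.12 and 0.048 in NBC mice 5, 9, 11 and 13, and -0.0075 to 0.076 in placebo mice. The Gapdh ratio given above was highest in NBC mice 5 and 11. Without those 2 mice the median of the 45 was 0.042, with 19 below 0 and 26 above. They were picked because they were low for these probe sets, so leaving them out raises the median by construction. Over all 8271 further probe sets the median without them was 0.027, with 3765 below 0. With the Gapdh ratio as a covariate the median of the 45 was -0.0079, with 23 below 0, and that of all 8271 was 0.016, with 3926 below 0. Where the probes of each set lie along their transcripts was not analysed here.

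Examples chosen for their size after the values were seen show the same mice. Sel1l by 1430692_a_at had 805, 2871, 896 and 1637 in NBC mice 5, 9, 11 and 13, and 2071, 1575, 2482 and 2163 in placebo mice 6, 8, 10 and 14. NBC mice 5 and 11 lay below every placebo mouse and NBC mouse 9 above every one. The log2 difference of -0.58 ± 0.37 (SE) was 0.083 without NBC mice 5 and 11, -0.026 with the covariate and -0.93 without NBC mouse 9 (limma adjusted p = 0.289), and all 4 further Sel1l probe sets were below 0. Canx by 1422845_at had 3344, 7431, 3353 and 5646 in NBC mice 5, 9, 11 and 13, and 6802, 6864, 4687 and 7026 in placebo mice 6, 8, 10 and 14. The same 2 NBC mice were the lowest, and the log2 difference of -0.42 ± 0.28 was 0.049 without them, -0.034 with the covariate and -0.65 without NBC mouse 9 (limma adjusted p = 0.382).

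Hspa8 by 1420622_a_at ran the other way, with 46393, 28664, 43380.4 and 28314 in NBC mice 5, 9, 11 and 13, and 38986, 41438, 37947 and 43683 in placebo mice 6, 8, 10 and 14. Here NBC mouse 5 was the highest of the 8, NBC mouse 11 lay within the placebo range and NBC mice 9 and 13 were the lowest. The log2 difference was -0.18 ± 0.19, and without NBC mice 5 and 11 it was -0.51 ± 0.13, with a limma adjusted p of 0.662.

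The Dnajc3 probe set 1449373_at was the one with an unadjusted p under 0.05. Its signals were 379, 943, 667 and 576 in NBC mice 5, 9, 11 and 13, and 868, 991, 1195 and 1062 in placebo mice 6, 8, 10 and 14. NBC mice 5, 11 and 13 lay below all placebo mice and NBC mouse 9 within their range. The log2 difference was -0.72 ± 0.25, with a limma p of 0.0164 and an adjusted p of 0.73. It was -0.46 without NBC mice 5 and 11, -0.38 with the covariate and -0.92 without NBC mouse 9, with limma adjusted p-values of 0.696, 0.824 and 0.238, while the brightest Dnajc3 probe set stood at -0.012.

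**Figure D4:**
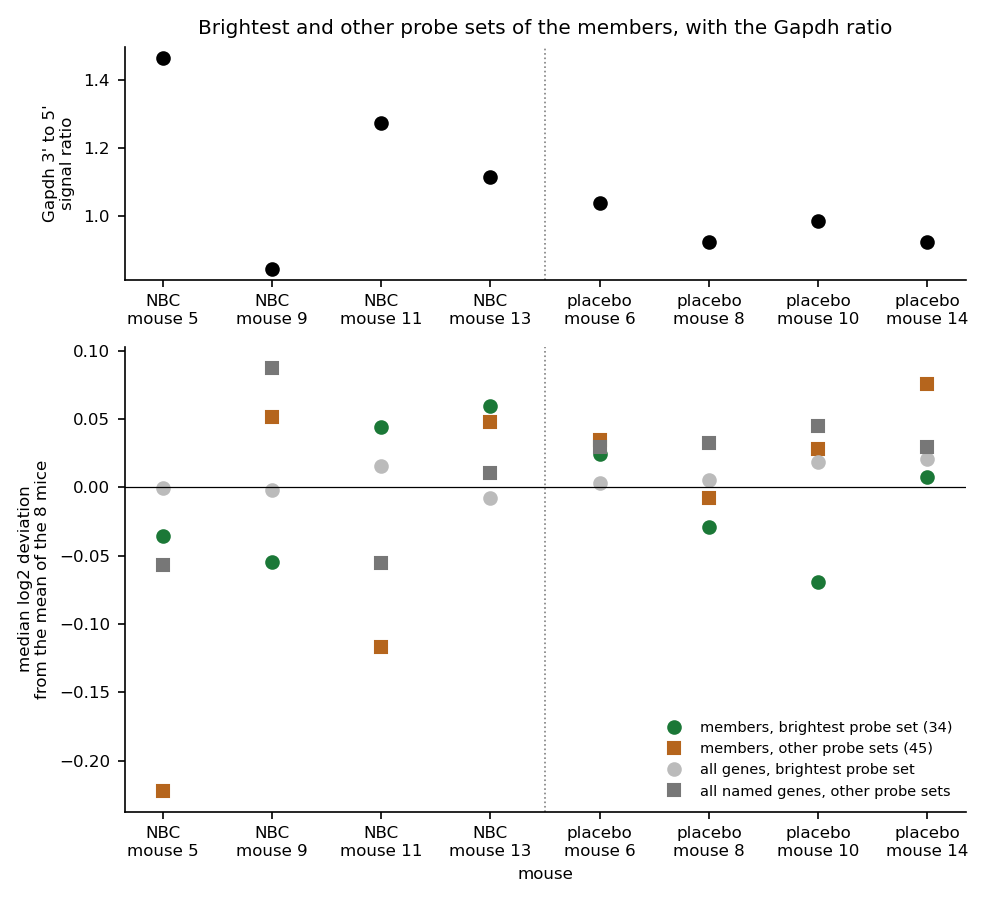
Top, the 3′ to 5′ Gapdh signal ratio of each array; bottom, the median log2 deviation per mouse from the mean of the 8 mice, for the brightest probe sets of the 34 genes (green circles), their 45 further probe sets (brown squares) and the same 2 kinds for all genes (grey), with NBC left of placebo. NBC mice 5 and 11 have the highest ratios, 1.47 and 1.28, and the lowest brown squares, -0.22 and -0.12, while the green circles stay between -0.069 and 0.059.

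The rest of the folding and stress pathway was read from 127 further genes, of which 119 were named and passed the filter. Of these, 51 were above 0 and 68 below, where 48.5% of all genes were above 0. Their median log2 difference was -0.045, against -0.0064 over all genes, and 0 passed the adjusted threshold in limma. At an unadjusted p under 0.05, 1 was higher in NBC (Pdia5) and 3 were lower (Hspa4l, Nploc4 and Eif2ak1) of 119, against 2.73% and 2.71% of all genes. By list, 14 of 39 cytosolic chaperones were above 0, 4 of 12 mitochondrial chaperones and proteases, 15 of 25 ER folding genes, 8 of 19 degradation genes and 10 of 24 stress regulators and targets.

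Nploc4, a cofactor of the segregase that extracts proteins from the ER membrane, had 3428, 3842, 3898 and 3811 in NBC mice 5, 9, 11 and 13, and 4417, 4659, 4507 and 4171 in placebo mice 6, 8, 10 and 14. Every NBC mouse lay below every placebo mouse, with a log2 difference of -0.24 ± 0.10 and a limma adjusted p of 0.778. Dnaja2, a cytosolic Hsp40, was the other gene without overlap, higher in NBC at 19501 ± 413 against 18560.0 ± 556 (SD, n = 4 each), but by only 0.072 ± 0.098, and 1 of its 3 other probe sets was below 0. These are 1 lower and 1 higher of 119, against 2.23% and 1.7% of all genes.

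Pdia5, a disulfide isomerase of the ER, had 1019, 1453, 1371 and 1492 in NBC mice 5, 9, 11 and 13, and 1027, 1093, 953 and 1099 in placebo mice 6, 8, 10 and 14. NBC mice 9, 11 and 13 were above all placebo mice and NBC mouse 5 among them, for a log2 difference of 0.33 ± 0.14 and a limma adjusted p of 0.778. Eif2ak1, the heme-regulated kinase upstream of Atf4, was lower in NBC by a log2 difference of -0.32 ± 0.13 with overlap between groups. Of its other probe sets, 1 stood at -0.30 and 1 at 0.023. Lonp1, the main protease of the mitochondrial matrix, was at 5804 ± 799 in NBC and 7014 ± 332 in placebo mice (SD, n = 4 each), and the log2 difference was -0.28 ± 0.13.

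Other genes named here were picked after their values were seen, and by their brightest probe sets the groups overlapped in each. Hspa4l, an Hsp110-type protein, had the smallest limma p of the 119, 0.0166. Its log2 difference was -0.46 ± 0.16 (limma adjusted p = 0.73). The further Hspa4l probe sets stood at -0.35, -0.41, -0.15 and 0.028. Cryab, Hspb6, Hspb7 and Hspb2, small heat shock proteins that are abundant in muscle, stood at -0.070, -0.22, -0.24 and -0.27, all below 0. Hspb3, another small heat shock gene, did not pass the filter. The further probe set of Cryab stood at -0.31 and those of Hspb7 at -0.37 and -0.64. The muscle markers were higher in NBC, but the part of muscle in the levels of these genes was not tested. The ATF4 and CHOP targets Trib3, Chac1, Asns and Atf3 stood at -0.068, 0.16, -0.13 and 0.20, and the value of Atf3 rested on NBC mouse 13, at 5269 against 1676 to 2456 in the other 7.

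**Figure D5:**
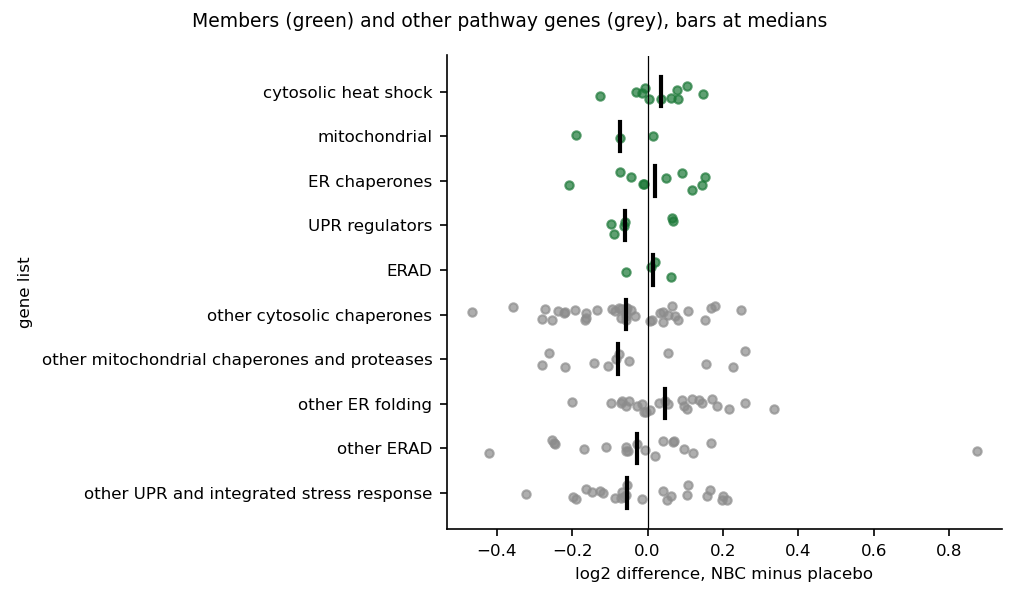
Points are log2 differences, NBC minus placebo, of the 34 genes (green) and of 119 further genes of the pathway (grey) by list, and bars are list medians, which lie between -0.080 and 0.045. The points of every list fall on both sides of 0, and the 1 point far to the right is Derl3, a dim gene at 0.87 ± 0.44 (SE), named after its value was seen.

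Without NBC mouse 9, which was the one NBC mouse with low muscle markers, 18 probe sets passed the adjusted threshold in limma, or 0.0799% of those tested, and none belonged to the 34 genes. In that fit 0 of the 34 brightest probe sets had an unadjusted p under 0.05, against 8.38% of all genes, while 11 of their 45 further probe sets did, as given above.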

How the data were processed

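The deposited table holds linear signal intensities, 1 per probe set in each array. Per the submitters' processing notes, the authors used MAS5, of a version not given there. Because their 2% trimmed mean was 1500.01 on all 8 arrays, they were used without further scaling. MAS5 leaves dim probe sets noisy, and such scaling lets very abundant transcripts of an array lower its other signals slightly. Groups and mouse numbers came from the sample titles, which give each array its own mouse. No pair of arrays shared more than 0.0776% of its signals.

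Of 45101 probe sets, 64 controls were left out. The platform annotation given for the series named 1 gene for 34945, several for 932 and none for 9160, and only the first kind was named here. Signals were taken as log2(signal + 26), where 26 is about the 10th percentile, so log2 differences understate changes of dim transcripts. Probe sets with a mean at or above the median (a signal of 274.6) were kept, 22519 in all. In R 4.3.3, limma 3.58.1 fitted NBC against placebo without covariates (lmFit, eBayes), p-values were adjusted by Benjamini-Hochberg across those 22519, and 0.05 was the threshold. SEs and 95% intervals use limma's moderated variance, and the code was tested on simulated data. The number of arrays, 4 per group, limits the precision.

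The 36 genes, the pathway and marker lists, the tests and the rule for named genes were chosen with earlier results of these data known. That rule names all 36 and, from each of the 5 lists of other pathway genes, up to 4 genes without overlap between groups of smallest p, and at least 1 per list. Lists were described by counts and medians without a test. Alternatives were pseudocounts of 1 and 100, no filter and one at the 75th percentile, quantile normalization, median centring, the mean of all probe sets of a gene, trend and robust settings, the Gapdh ratio as a covariate and leaving out each mouse. Leaving out NBC mice 5 and 11 together was added after seeing the data. Promoter windows were read and searched with Python 3.11.15. Genes on chromosome 18 were not searched.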

Additional observations from a re-analysis of the deposited data

Results flagged for a closer look

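In 5 of 168 groups of 4 mice (2.98%), 1 mouse stood apart from the other 3 by a gap that, over the group's range, exceeded Dixon's 95% critical value, which chance alone gives in about 1 group in 20. Eif2ak3, the PERK sensor, had a signal of 3114.4 in NBC mouse 9, against 2292 to 2376 in the other NBC mice. The Hsp90aa1 probe set 1437497_a_at had 19183.3 in NBC mouse 5, against 10778 to 11632 in the other NBC mice. The Hspe1 probe set 1422579_at had 3326.5 in NBC mouse 9, against 2395 to 2505 in the other NBC mice. Canx by 1422845_at had 4687.3 in placebo mouse 10, against 6802 to 7026 in the other placebo mice. Ern1 by 1421240_at had 484.1 in placebo mouse 6, against 219 to 263 in the other placebo mice.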

How the results depend on the processing

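The count of the 34 genes at an unadjusted limma p under 0.05 was 0 under all 18 alternatives, and no gene of the 34 passed the adjusted threshold in any. Probe sets past the adjusted threshold numbered 0 under each alternative except without NBC mouse 9, where they were 18, so leaving out 1 mouse gave 0 to 18. The median log2 difference ranged over all alternatives from 0.0029 to 0.079 for the cytosolic genes, -0.049 to 0.029 for the ER genes and -0.16 to -0.039 for the mitochondrial genes. With 1 mouse left out it was 0.019 to 0.079, -0.022 to 0.029 and -0.11 to -0.039 for these lists in that order. For the members' further probe sets the median of -0.10 was -0.14 to -0.026 with 1 mouse left out and 0.042 without NBC mice 5 and 11. Of those 45, 1 had an unadjusted p under 0.05, and with 1 mouse left out this was 1 to 11, the 11 without NBC mouse 9. It was 0 of 34 at the filter at the 75th percentile, where the smallest limma adjusted p was 0.642, and 2 with the Gapdh ratio as a covariate. Of 611 values of single genes under the alternatives, 78 had the opposite sign to the reported one, in 26 of the 34 genes, and 9 moved by more than 1 SD, as for Canx (-0.17), Sel1l (-0.34) and Dnajc3 (-0.24) with the mean of all probe sets. At the filter at the 75th percentile Hspa1a had no value. No paired analysis was possible because no mouse number occurs in both groups. The cause of these shifts was not tested. With 4 arrays per group, differences within the 95% intervals given for each gene were not detectable, and transcript levels show neither splicing of Xbp1 nor activation of the sensors.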
